A study of Homo sapiens with 6 samples.

Results

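The TRIM family, 67 genes among the 17646 listed, was compared between MDA-MB-231 cells that received a control siRNA (siControl) and cells that received an siRNA against the deubiquitinase gene USP32 (siUSP32), each for 48 h. The members were the rows whose symbol is TRIM followed by a digit, with 1 such symbol left out by the rule that defined the set. MDA-MB-231 is an established human line of triple negative breast cancer, and no further treatment is named for either group. Each group held 3 libraries of total RNA, so the effect of a single line was measured, and the labels do not say whether the libraries came from separate cultures. The p-values therefore cover only library-to-library spread, possibly technical. All values are RNA levels in FPKM (fragments per kilobase of transcript, relative to all mapped fragments), and the activity of the ligases was not measured. In bulk samples of this kind, fewer cells that express a gene and less of its RNA per cell cannot be told apart.

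TRIM proteins share an N-terminal tripartite motif, a RING finger followed by B-box zinc fingers and a coiled coil, and differ in what follows. The RING finger recruits an E2 enzyme that carries ubiquitin, the coiled coil makes dimers, and the C-terminal domain, most often a PRY-SPRY domain, binds the substrate. Several members act in innate antiviral signalling, a few read histone marks in chromatin, and some lack the RING finger and so have no ligase activity of the usual kind. TRIM13 and TRIM59 are set apart by a transmembrane segment near the C terminus, which anchors TRIM13 in the endoplasmic reticulum membrane.

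The coding bases of that segment are shown for both genes because it is the feature that separates them from the rest of the family. Capitals mark the 57 bases of the most hydrophobic window of 19 residues, and the lower case letters mark 18 bases on each side. The sequences are from GENCODE 29 transcripts on GRCh38, written in the direction of the gene. The window lay in coding sequence at chr13:50012889-50012945 on the plus strand for TRIM13 (residues 317 to 335 of 407) and at chr3:160438143-160438199 on the minus strand for TRIM59 (residues 329 to 347 of 403).
TRIM13: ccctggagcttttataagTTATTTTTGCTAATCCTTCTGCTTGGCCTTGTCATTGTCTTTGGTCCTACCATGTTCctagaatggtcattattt
TRIM59: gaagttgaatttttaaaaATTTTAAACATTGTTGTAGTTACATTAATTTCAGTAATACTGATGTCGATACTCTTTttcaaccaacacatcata

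The mean Kyte-Doolittle hydropathy of the window was 2.69 for TRIM13 and 2.81 for TRIM59. The next highest member, TRIM55, reached 1.72, in a window that starts at residue 24. By the cut of 1.6 used here for a hydrophobic segment, 8 other members also had one (TRIM5, TRIM43, TRIM43B, TRIM47, TRIM54, TRIM55, TRIM63 and TRIM68), all close to the cut.

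The labels held for the targeted gene. USP32 was at 7.5, 7.48 and 8.32 FPKM in siControl and at 2.0, 1.88 and 2.01 FPKM in siUSP32 libraries, with a log2 difference of -1.56 (limma adjusted p = 8.57e-08). The summed FPKM of all genes ran from 686376 to 694831 over the siControl libraries and from 855573 to 948641 over those of siUSP32, and the median FPKM was 5.14 to 5.23 and 3.59 to 3.88. Rescaling the libraries therefore moves every difference, and 4 scalings are given beside the results. Rescaling to equal sums (TPM) moved the median log2 difference of all tested genes from -0.063 to -0.39, median-ratio scaling moved it to 0.057 and quantile normalization to 0.10. A correction for transcript length moved it to 0.0096. Markers of the line were checked too. VIM was at 1077 FPKM or more and CD44 at 131 or more in each library, ESR1 at 0.63 or less and CDH1 at 0.50 or less, while EPCAM reached 12.1, ERBB2 12.2 and PECAM1 1.1 FPKM, and ALB and PTPRC were at 0.03 or less.

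Of the 67 members 42 had a mean of at least 1 FPKM over the 6 libraries and were tested, on the log2(FPKM + 1) scale with limma across all 12003 genes that passed this filter. TRIM29 was the highest, followed by TRIM28, TRIM16, TRIM27, TRIM25 and TRIM47. The summed FPKM of the tested members was 659 ± 6.96 in siControl and 702 ± 12.4 in siUSP32 libraries (SD, n = 3). That of all genes was 1.3 times as high in siUSP32 as in siControl, so the members made up a smaller share of it. The median coefficient of variation between libraries was 4.36% in siControl and 7.12% in siUSP32. TRIM34, TRIM6 and TRIM55 averaged at least 1 FPKM in 1 group only, TRIM55 in siUSP32 and the other two in siControl. A gene that passes the filter in this way had to differ, so their calls say less than those of the other members.

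**Figure D1:**
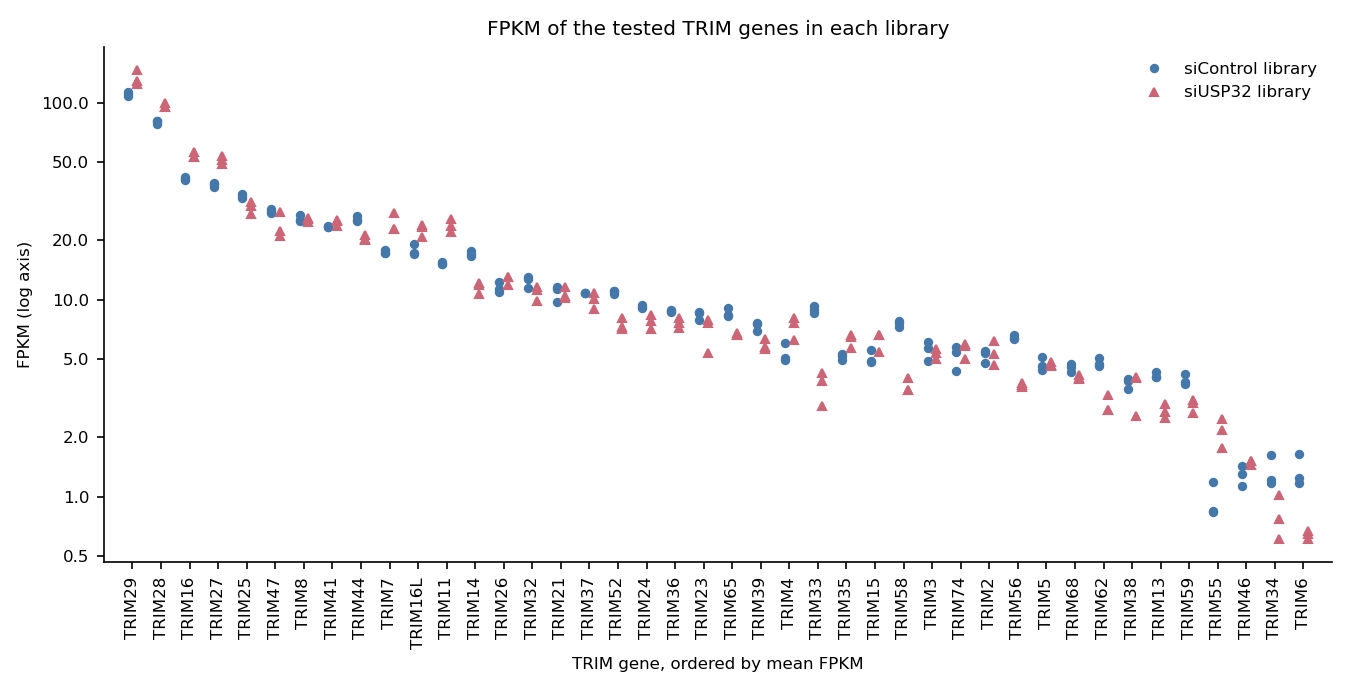
FPKM of each tested TRIM gene in each library, on a log axis, with genes ordered by mean FPKM. Circles are siControl and triangles siUSP32 libraries, 3 of each, and TRIM33, TRIM58 and TRIM6 show a gap with the siUSP32 libraries below, while TRIM11 and TRIM55 show one with them above.

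Of the 42 tested members 11 rose, 17 fell and 14 were not called, a call being a limma adjusted p under 0.05. In all 66.7% of the members were called, against 74.6% of all genes tested. The shares called higher and lower were 26.2% and 40.5%, against a background of 33.3% and 41.3%. Groups did not overlap for 29 members (69.0%, against 77.8% of all genes). The median log2 difference of the members was -0.10, beside -0.063 for all genes. Differences were mostly small, with 34 of 42 (81.0%) under 0.5 on the log2 scale, beside 59.6% of all genes. A single called member, TRIM33, differed by at least 1 (2.38%, beside 12.8% of all genes).

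The split between rises and falls depended on the scaling. With TPM 2 members were higher and 28 lower, on a background of 14.3% and 62.1%. With median-ratio scaling 14 were higher and 12 lower (background 40.9% and 34.7%), and after quantile normalization 18 were higher and 8 lower (43.5% and 30.3%). The length correction, a robust loess curve, left 18 higher and 10 lower, where the background was 35.1% in each direction. That form of the correction was adopted after a least-squares loess had been run and seen. The least-squares curve called 23 members higher and 8 lower (background 44.3% and 28.6%) and left the median of all genes at 0.11. Under all 4 of these scalings 7 of the 28 calls were kept with their direction. They were the rises of TRIM11 and TRIM55 and the falls of TRIM33, TRIM58, TRIM14, TRIM6 and TRIM52, and all 7 were also called with the least-squares curve. TRIM55 and TRIM6 passed the filter through 1 group only, and the filter was not redone for each scaling. For these genes a kept call therefore adds no support.

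**Figure D2:**
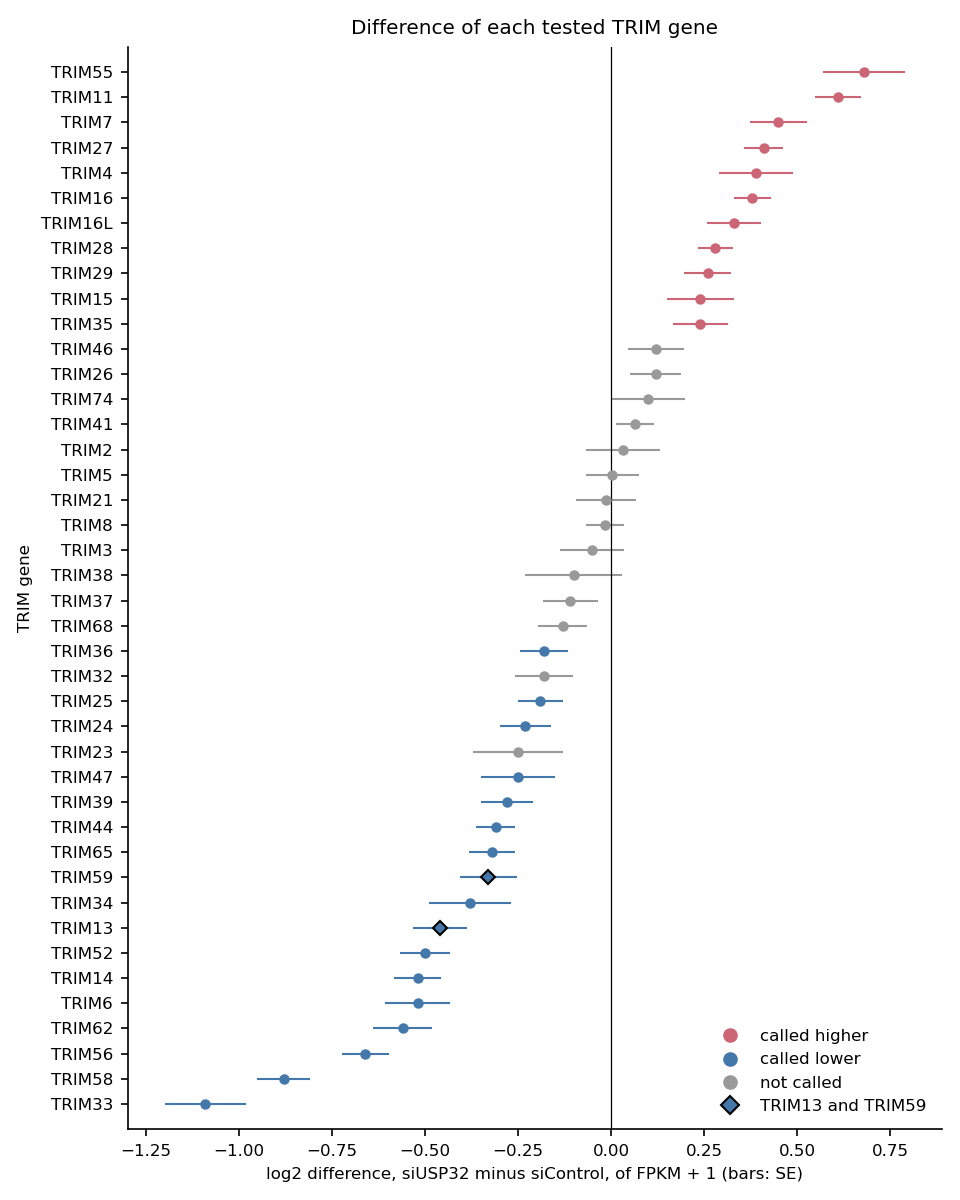
Log2 difference of FPKM + 1, siUSP32 minus siControl, of each of the 42 tested TRIM genes, with bars of 1 SE. Red marks genes called higher, blue those called lower and grey those not called, diamonds mark TRIM13 and TRIM59, and the range runs from -1.09 for TRIM33 to 0.68 for TRIM55.

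**Figure D3:**
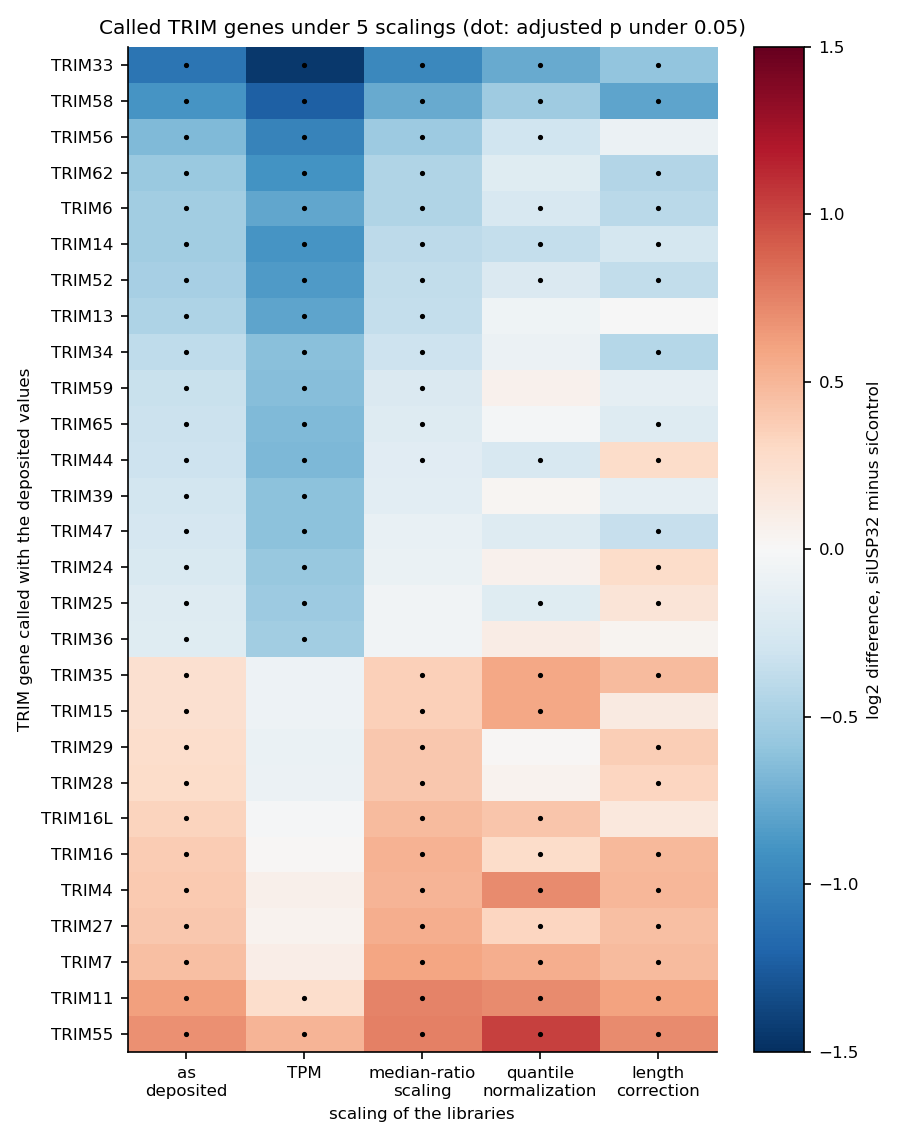
Log2 difference of the 28 called TRIM genes (rows) under 5 scalings of the libraries (columns), with color for the size and direction and a dot where the adjusted p was under 0.05. Of the 11 rises 2 keep their dot with TPM, and 8 of the 17 falls keep theirs after quantile normalization.

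Both membrane-anchored members fell. TRIM13, a ligase of the endoplasmic reticulum membrane, was at 4.05, 4.05 and 4.28 FPKM in siControl and at 2.68, 2.51 and 2.97 FPKM in siUSP32 libraries. The groups did not overlap. The mean fell 1.52-fold, with a log2 difference of -0.46 ± 0.07 (SE, limma adjusted p = 3.25e-04). The 2-sided exact permutation p was 0.1, and a design of this size cannot give a lower one.

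TRIM59, whose anchor lies at a like place, was at 3.82, 4.19 and 3.73 FPKM in siControl and at 2.98, 2.66 and 3.11 FPKM in siUSP32 libraries. Here too the groups stayed apart. The mean fell 1.34-fold, with a log2 difference of -0.33 ± 0.08 (SE, limma adjusted p = 0.00345, exact permutation p = 0.1, 2-sided). Neither call held under every scaling. After quantile normalization the differences were -0.066 for TRIM13 and 0.066 for TRIM59, and with the length correction they were -0.0011 and -0.14 (0.10 and -0.00095 with the least-squares curve), with no call in any of these cases. Without any one library both were still called, at -0.51 to -0.42 for TRIM13 and -0.36 to -0.28 for TRIM59.

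The length correction of TRIM13 turned on the transcript chosen. GENCODE gives it 3 principal transcripts with the same coding length, from 1489 to 7249 bases, and with the shortest in place of the longest the corrected difference was -0.72 (limma adjusted p = 4.25e-05), an alternative chosen after seeing the data. That of TRIM59 was -0.11 with the shortest transcripts, and again not called. The 2 genes also share sequence with neighbours. Of the 50-base words of the TRIM13 transcript 16.1% occur in another gene, mostly in KCNRG (10.7%) and on the opposite strand in DLEU2 (4.13%). For TRIM59 this share was 30.5%, of which 28.5% lies in an overlapping protein-coding gene that GENCODE names AC079594.2. How the authors assigned such reads is not given in the sources used here.

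RING ligases outside the family with a membrane anchor were taken as a comparison, since they share the anchor and the catalytic domain. Of 24 tested 17 fell, 3 rose and 4 were not called, and the median log2 difference was -0.53 (range -2.03 to 0.58). The shares called lower and higher were 70.8% and 12.5%, beside 41.3% and 33.3% of all genes. The difference between this list and the TRIM genes was not tested. RNF149, a membrane ligase, fell from 44.5 to 10.5 FPKM (log2 difference -1.99), and SYVN1, the HRD1 ligase of endoplasmic reticulum degradation, from 24.0 to 6.89 FPKM (-1.66). RNF5, a ligase with a C-terminal anchor, rose from 91.2 to 137 FPKM (0.58), and MARCHF2 from 4.55 to 6.85 FPKM (0.50), though TPM gave 0.19 and no call. The split was 1 higher and 20 lower with TPM (all genes 14.3% and 62.1%), 7 and 16 with median-ratio scaling (40.9% and 34.7%), and 5 and 15 after quantile normalization (43.5% and 30.3%). With the deposited values TRIM13 and TRIM59 thus lay within the range of this list and above its median. The list median was -0.89 with TPM and -0.4 with median-ratio scaling, beside -0.79 and -0.36 for TRIM13 and -0.64 and -0.22 for TRIM59. After quantile normalization it was -0.46, beside -0.066 for TRIM13 and 0.066 for TRIM59. With the length correction it was -0.45 (3 higher, 17 lower, all genes 35.1% each), beside -0.0011 and -0.14. With its shortest transcripts it was -0.56, beside -0.72 and -0.11.

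Over all tested genes the median difference was -0.43 for the 3902 whose protein had a hydrophobic segment and 0.057 for the 8057 without one. In these 2 sets 62.5% and 31.0% were called lower. Without TRIM13 and TRIM59 the median of the tested TRIM members was -0.074, with 11 of 40 higher and 15 lower. The part of the anchor in the fall of the 2 genes was not tested.

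**Figure D4:**
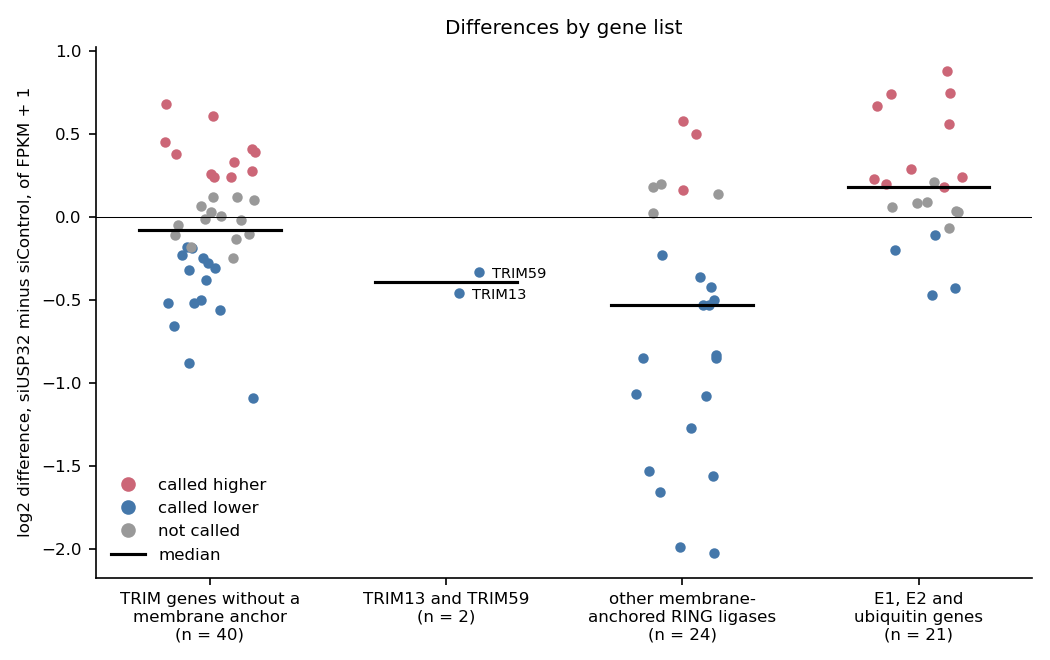
Log2 difference of FPKM + 1, siUSP32 minus siControl (vertical axis), for 4 sets of tested genes, with 1 point per gene and a bar at the median. TRIM13 (-0.46) and TRIM59 (-0.33) lie between the median of the other TRIM genes (-0.074) and that of the other membrane-anchored RING ligases (-0.53). The values are as deposited, without rescaling.

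The members that carry a PHD finger and a bromodomain did not move together. TRIM33 (GRCh38 minus strand, chromosome 1, 114392777 to 114511160), a regulator of SMAD4 and TGF-beta signalling also called TIF1-gamma, had the largest fall among the tested members. It was at 8.85, 8.55 and 9.32 FPKM in siControl and at 3.89, 2.90 and 4.27 FPKM in siUSP32 libraries, all of them below the lowest siControl library. The mean fell 2.42-fold (log2 scale -1.09 ± 0.11, limma adjusted p = 1.72e-05). The direction and call were kept under the 4 scalings, from -1.45 with TPM to -0.59 with the length correction.

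TRIM24, or TIF1-alpha, a coregulator of nuclear receptors, fell from 9.20 to 7.74 FPKM (a log2 difference of -0.23, limma adjusted p = 0.0152). Its call was lost without siControl library 2 (-0.21, limma adjusted p = 0.0627) and was higher with the length correction (0.28). TRIM28, or KAP1, the corepressor that KRAB zinc finger proteins bring to their target sites, was at 81.0, 80.7 and 77.6 FPKM in siControl and at 95.5, 100.2 and 95.0 FPKM in siUSP32 libraries. The groups did not overlap, and the log2 values differed by 0.28 ± 0.05 (SE, limma adjusted p = 5.71e-04), but it was -0.091 with TPM and 0.055 after quantile normalization, without a call. TRIM66, the other gene of this class, had a mean of 0.627 FPKM in siControl and 0.483 in siUSP32 and was not tested.

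Of 14 tested partners of TRIM28 in silencing 4 rose, 6 fell and 4 were not called (median -0.074). Those shares, 28.6% higher and 42.9% lower, lie near the 33.3% and 41.3% of all genes. HDAC1, a histone deacetylase, rose from 76.6 to 118 FPKM (a log2 difference of 0.62, limma adjusted p = 7.61e-06), and HDAC2 from 111 to 135 FPKM (0.29), a difference that was -0.082 with TPM. TASOR and ATF7IP, which belong to or act with the HUSH silencing complex, fell from 16.6 to 9.97 and from 6.72 to 3.81 FPKM (-0.69 and -0.68). With the length correction TASOR was at -0.32 and ATF7IP at -0.16. In its least-squares form they were at -0.2 and -0.061, the latter without a call, and with the shortest transcripts at -0.29 and -0.42. The split was 1 higher and 11 lower with TPM (all genes 14.3% and 62.1%) and 6 and 5 with median-ratio scaling (40.9% and 34.7%). It was 5 and 2 with the length correction (35.1% each) and 9 and 1 with its least-squares form (44.3% and 28.6%).

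The PRY-SPRY members form the largest class. Among the 20 tested with a RING finger 6 rose, 8 fell and 6 were not called, with a median of -0.056. The shares of 30% higher and 40% lower lie near those of all genes (33.3% and 41.3%). TRIM58 (GRCh38 plus strand, chromosome 1, 247857199 to 247878205), a ligase known from red cell maturation, had the largest fall in the class on the log2(FPKM + 1) scale. It was at 7.65, 7.81 and 7.24 FPKM in siControl and at 3.47, 3.5 and 3.99 FPKM in siUSP32 libraries, with no overlap. The mean fell 2.07-fold (log2 scale -0.88 ± 0.07, limma adjusted p = 4.66e-06), and the difference lay between -1.23 with TPM and -0.53 after quantile normalization.

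TRIM62, also known as DEAR1, was at 5.09, 4.71 and 4.6 FPKM in siControl and at 2.75, 3.28 and 2.75 FPKM in siUSP32 libraries. The groups did not overlap, and the mean fell 1.64-fold (a log2 difference of -0.56, limma adjusted p = 1.58e-04), with no call after quantile normalization (-0.18). TRIM6, which makes unanchored ubiquitin chains that activate the kinase encoded by IKBKE, was at 1.65, 1.18 and 1.25 FPKM in siControl and at 0.65, 0.61 and 0.67 FPKM in siUSP32 libraries (a log2 difference of -0.52, limma adjusted p = 5.66e-04). Its mean fell 2.11-fold, as a ratio slightly more than that of TRIM58. TRIM6 passed the filter through siControl only, so its fall and its call say less. Its 3 siUSP32 values lie close together at about the same distance below siControl.

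TRIM11 (GRCh38 minus strand, chromosome 1, 228393673 to 228406840), a ligase with a role in protein quality control, had the largest rise among RING-bearing PRY-SPRY members. It was at 15.1, 15.6 and 15.2 FPKM in siControl and at 22.2, 25.6 and 23.7 FPKM in siUSP32 libraries. The groups were well apart, and the mean rose 1.56-fold (log2 scale 0.61 ± 0.06, limma adjusted p = 2.26e-05). The call was kept from 0.26 with TPM to 0.74 with median-ratio scaling.

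TRIM7, which binds the glycogen primer glycogenin, was at 17.3, 17.9 and 17.2 FPKM in siControl and at 22.8, 27.5 and 22.9 FPKM in siUSP32 libraries (a log2 difference of 0.45, limma adjusted p = 5.48e-04). TRIM27, a nuclear repressor also called RFP, was at 38.6, 39.2 and 37.3 FPKM in siControl and at 51.5, 49.1 and 53.7 FPKM in siUSP32 libraries (a log2 difference of 0.41, limma adjusted p = 8.79e-05). TRIM4, a ligase for the RNA sensor RIG-I, was at 5.07, 4.92 and 6.01 FPKM in siControl and at 7.63, 6.24 and 8.04 FPKM in siUSP32 libraries (a log2 difference of 0.39, limma adjusted p = 0.00688). Each of the 3 was higher in every siUSP32 library, and each lost its call with TPM, where the differences were 0.10, 0.051 and 0.072.

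TRIM25, the ligase best known for activating RIG-I, was at 32.9, 33.5 and 34.3 FPKM in siControl and at 29.8, 27.2 and 31.2 FPKM in siUSP32 libraries. It fell by a small amount (a log2 difference of -0.19, limma adjusted p = 0.0194), was not called without siControl library 2 or 3 (limma adjusted p = 0.0582 and 0.0745), and was called higher with the length correction (0.19) but lower with its shortest transcripts (-0.12). TRIM47 was at 28.2, 28.8 and 27.6 FPKM in siControl and at 22.2, 28.0 and 21.1 FPKM in siUSP32 libraries, where library 2 lay among the siControl values. Its call (a log2 difference of -0.25, limma adjusted p = 0.0407) was lost without any one library other than siUSP32 library 2, with -0.26 to -0.17 over those 5 fits. TRIM65 fell from 8.57 to 6.68 FPKM (-0.32), TRIM39 from 7.37 to 5.88 FPKM (-0.28) and TRIM34 from 1.34 to 0.80 FPKM (-0.38). All 3 were without a call after quantile normalization, where TRIM39 was at 0.029. TRIM34 passed the filter through siControl only, so its call says less.

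The remaining rises in this class were small. TRIM35 rose from 5.14 to 6.26 FPKM (log2 difference 0.24) and TRIM15, a component of focal adhesions, from 5.09 to 6.22 FPKM (0.24), the latter with 1 siControl library inside the siUSP32 range, and with TPM these differences were -0.077 and -0.075. TRIM35 lost its call without siControl library 3 (0.22) or siUSP32 library 1 (0.20), and TRIM15 without siControl library 1 (0.21) or 2 (0.22) or siUSP32 library 2 (0.20) or 3 (0.20). The 6 that were not called were TRIM21, the cytosolic antibody receptor (10.9 and 10.8 FPKM in siControl and siUSP32), TRIM5, the retroviral restriction factor (4.70 and 4.71), TRIM26 (11.6 and 12.6), TRIM38, a regulator of NF-kB signalling (3.8 and 3.54), TRIM41 (23.6 and 24.7) and TRIM68 (4.52 and 4.03). In TRIM38 the siUSP32 libraries were at 4.0, 2.56 and 4.07 FPKM, with library 2 alone below siControl.

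All 3 members with a PRY-SPRY domain but no RING finger were called, where 74.6% of all genes were. TRIM14, an adaptor of the antiviral protein MAVS, was at 16.7, 17.0 and 17.6 FPKM in siControl and at 11.9, 10.8 and 12.2 FPKM in siUSP32 libraries. With no overlap, the mean fell 1.47-fold (log2 scale -0.52 ± 0.06, limma adjusted p = 6.19e-05), and the fall was called under each of the 4 scalings (-0.88 to -0.26). TRIM16, which acts in the autophagy of damaged lysosomes, was at 42.1, 40.6 and 40.9 FPKM in siControl and at 52.9, 56.5 and 52.8 FPKM in siUSP32 libraries. It rose 1.31-fold (a log2 difference of 0.38, limma adjusted p = 1.03e-04), with 0.019 and no call with TPM. TRIM16L rose from 17.8 to 22.8 FPKM (0.33), with -0.019 with TPM. Both are uncertain one by one, since 66.7% of the 50-base words of TRIM16 and 57.0% of those of TRIM16L occur in another gene, mostly in TRIM16 for TRIM16L (56.2%), and for TRIM16 in a protein-coding gene that GENCODE names AC005324.3 (38.8%) and in TRIM16L (32.2%).

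Members without a known C-terminal domain were mostly level or lower. TRIM56, a ligase of the cytosolic DNA and RNA response, was at 6.6, 6.36 and 6.30 FPKM in siControl and at 3.79, 3.61 and 3.71 FPKM in siUSP32 libraries. The SD was 0.159 FPKM in siControl and 0.0902 FPKM in siUSP32, and the mean fell 1.73-fold (log2 scale -0.66 ± 0.06, limma adjusted p = 1.25e-05). Its transcript is long, at 10952 bases, and with the length correction the difference was -0.093 without a call (0.013 with the least-squares curve). TRIM52 fell from 11.0 to 7.50 FPKM (-0.50) and kept its call under the 4 scalings, although 50.8% of its 50-base words occur in another gene, nearly all on the opposite strand. TRIM8, a regulator of NF-kB and STAT signalling, was at 25.9 and 25.6 FPKM, and TRIM74 was at 5.17 and 5.59 FPKM, neither past the test. TRIM74 shares 92.3% of its words with TRIM73.

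Of the 2 members with B-boxes but no RING finger or C-terminal domain, 1 rose and 1 fell. TRIM29, also known as ATDC, was the most abundant member, at 113, 111 and 108 FPKM in siControl and at 129.8, 146 and 125 FPKM in siUSP32 libraries. The groups did not overlap (a log2 difference of 0.26, limma adjusted p = 0.00416), but the difference was -0.10 with TPM and 0.020 after quantile normalization, without a call. TRIM44, which has a ubiquitin-binding zinc finger of the kind found in deubiquitinases, fell from 25.7 to 20.6 FPKM (-0.31) and was called higher with the length correction (0.28), its transcript being 12964 bases long.

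Members with a COS box, which binds microtubules, gave 1 rise and 1 fall among 3 tested. TRIM55, the muscle RING finger protein MuRF2, was at 0.84, 1.19 and 0.85 FPKM in siControl and at 1.77, 2.48 and 2.17 FPKM in siUSP32 libraries. It had the largest rise among the tested members, 2.23-fold (log2 scale 0.68 ± 0.11, limma adjusted p = 3.38e-04), called under each of the 4 scalings (0.51 to 1.02), from a low level. TRIM55 passed the filter through siUSP32 only, so its call says less. TRIM36 fell from 8.76 to 7.63 FPKM (-0.18 with a limma adjusted p = 0.032) and was not called without any 1 siControl library (limma adjusted p = 0.0794 to 0.0997) or without siUSP32 library 3 (0.084), and was at 0.036 with the length correction. TRIM46, which organises microtubules in axons, was at 1.29 and 1.49 FPKM and was not called.

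None of the 5 tested members with NHL repeats, a MATH domain or an ARF domain was called, where 74.6% of all genes were. These are separate classes, put together here with their calls known, so the comparison says nothing about a shared trait. The NHL members TRIM2 (5.21 and 5.37 FPKM), TRIM3 (5.57 and 5.32) and TRIM32 (12.5 and 10.9) had overlapping groups. TRIM37, the MATH member, which limits centriole assembly, was at 10.8 and 9.97 FPKM. TRIM23, whose ARF domain is a GTPase, was at 7.93, 8.55 and 8.68 FPKM in siControl and at 7.61, 5.38 and 7.91 FPKM in siUSP32 libraries. Its groups did not overlap, but siUSP32 library 2 lay well below the other two (a log2 difference of -0.25, limma adjusted p = 0.0856). Of these 5 genes 1, TRIM32, had an unadjusted limma p under 0.05 (0.046). The other scalings gave calls in both directions. With TPM TRIM3 (-0.38), TRIM23 (-0.59), TRIM32 (-0.53) and TRIM37 (-0.46) were called lower. The length correction called TRIM2 (0.47) and TRIM37 (0.14) higher, and quantile normalization TRIM2 (0.38) and TRIM3 (0.29).

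Library 2 was the siUSP32 library farthest from its nearest neighbour for 27 of the 42 members (64.3%), and for 59.2% of all genes tested.

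The 25 members below the filter were low in both groups. TRIM45 was the highest at a mean of 0.783 FPKM, just under the limit, and TRIM6 the lowest inside it. TRIM45 was at 0.92, 0.88 and 0.91 FPKM in siControl and at 0.55, 0.85 and 0.59 FPKM in siUSP32 libraries, which do not overlap. The other 24, among them the muscle genes TRIM54, TRIM63 and TRIM72, the developmental gene TRIM71 and the tandem copies TRIM43, TRIM43B, TRIM49, TRIM49C, TRIM49D2, TRIM64 and TRIM64B, stayed at 0.68 FPKM or less in each library. They also include TRIM9, TRIM10, TRIM17, TRIM31, TRIM39-RPP21, TRIM48, TRIM50, TRIM51, TRIM60, TRIM66, TRIM67, TRIM69 and TRIM73. Of the 25, 18 were listed at 0 in at least 1 library.

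Family members under other names are PML, MID1, MID2, MEFV, TRIML1, TRIML2 and CMYA5. TRIML2 rose from 8.14 to 23.6 FPKM (a log2 difference of 1.43, limma adjusted p = 1.13e-06). On that scale this was more than any tested member of the set. The microtubule ligases MID1 and MID2 fell from 5.28 to 3.86 and from 4.29 to 3.24 FPKM (-0.37 and -0.32), with 0.055 for MID1 with the length correction and 0.0068 and 0.070 for MID1 and MID2 after quantile normalization. PML, the organiser of nuclear bodies, was not called (-0.030). It was called lower with TPM (-0.38). It was called higher under the length correction with the shortest transcripts (0.27) and in its least-squares form (0.37). MEFV, TRIML1 and CMYA5 were below the filter.

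Members that lie next to each other in the genome did not all share a direction. TRIM7, TRIM41 and TRIM52 lie within 49123 bases of one another on chromosome 5, where TRIM7 was called higher, TRIM41 was not called and TRIM52 was called lower. TRIM47 and TRIM65, 1759 bases apart on chromosome 17, were both called lower. TRIM6 and TRIM34, 6805 bases apart on chromosome 11, were too, and 89.4% of the TRIM34 words occur in the gene TRIM6-TRIM34, so their reads may not be separable. TRIM11 was called higher, while TRIM17, 1099 bases away, stayed at 0.17 FPKM or less. On chromosome 6 TRIM15 was called higher and TRIM26, 11758 bases from it, was not called.

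The differences were also set beside transcript length, with all tested genes of the same lengths for comparison. The 14 members with the shortest transcripts (1350 to 3061 bases) had a median log2 difference of 0.18, with 7 higher (50%) and 2 lower (14.3%), where all genes of that range had a median of 0.13, 46.1% higher and 27.2% lower. The 14 of middle length (3225 to 3867 bases) had a median of -0.23, with 3 higher (21.4%) and 7 lower (50%), beside a median of -0.14, 21.0% and 46.0% of all genes. The 14 longest (4050 to 12964 bases) had a median of -0.21, with 1 higher (7.14%) and 8 lower (57.1%), beside -0.39, 10.8% and 65.8%. In members and in all genes alike, the share called lower was smallest in the shortest range and largest in the longest, while the members of middle and longest length had about the same median. After the length correction these medians were 0.14, -0.081 and 0.17. Of the 17 falls 3 were called in the opposite direction by that correction, those of TRIM24, TRIM25 and TRIM44. What part transcript length has in the differences was not tested further.

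**Figure D5:**
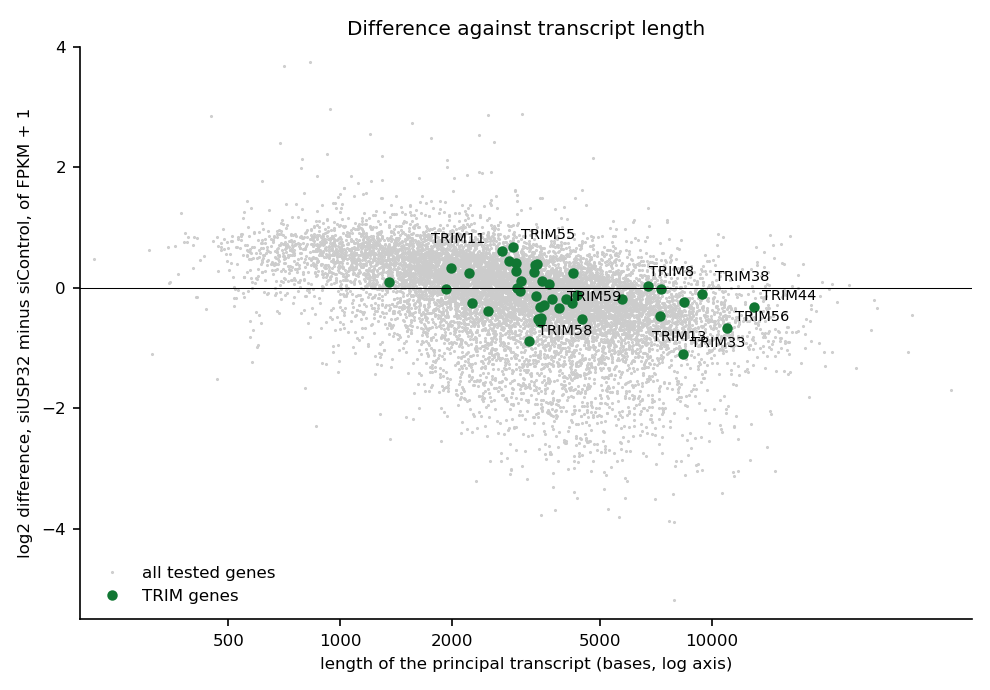
Log2 difference of FPKM + 1, siUSP32 minus siControl, against the length of the principal transcript in bases on a log axis, with grey points for all tested genes that have a length and green points for the 42 TRIM genes. TRIM33, TRIM56 and TRIM44 lie at lengths of 8339 to 12964 bases with differences of -1.09 to -0.31, while TRIM58 is as low as -0.88 at 3225 bases.

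The enzymes upstream of TRIM ligases were counted as well. Of 21 E1, E2 and ubiquitin genes 10 rose, 4 fell and 7 were not called, with a median of 0.18. The shares were 47.6% higher and 19% lower, beside 33.3% and 41.3% of all genes. UBE2D1, an E2 of the family most TRIM ligases use, rose from 10.7 to 20.4 FPKM (a log2 difference of 0.88, limma adjusted p = 5.20e-06). UBE2G2, an E2 of endoplasmic reticulum degradation, fell from 38.3 to 28.1 FPKM (-0.43), and the E1 gene UBA6 from 11.1 to 7.76 FPKM (-0.47), with 0.066 after the length correction. The split was 5 higher and 10 lower with TPM (all genes 14.3% and 62.1%), 16 and 2 with median-ratio scaling (40.9% and 34.7%), and 7 and 5 after quantile normalization (43.5% and 30.3%), where the median was -0.019.

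In the RNA and DNA sensing chain, on which several TRIM ligases act, 7 of 20 genes rose, 7 fell and 6 were not called (median 0.10). The share of 35.0% in each direction lies near the 33.3% higher and 41.3% lower of all genes. The adaptors STING1 and MAVS, both anchored in membranes, fell from 29.2 to 16.2 FPKM and from 11.3 to 6.96 FPKM (log2 differences -0.81 and -0.63), though MAVS was at -0.053 with the length correction and 0.055 with its least-squares form, without a call. The kinase genes IKBKE and IKBKG, the latter encoding the regulatory subunit NEMO, rose from 5.95 to 9.58 and from 12.6 to 23.7 FPKM (0.60 and 0.85). The split was 2 higher and 11 lower with TPM (all genes 14.3% and 62.1%) and 10 and 6 with median-ratio scaling (40.9% and 34.7%). It was 10 and 5 after quantile normalization (43.5% and 30.3%) and 11 and 5 with the length correction (35.1% each).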

How the data were processed

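The authors deposited 1 table of FPKM per library, per the file headers. Per the submitters' processing notes the genome was GRCh38.p13. No aligner, counting tool, annotation, strand setting or filter is named in the sources used here. FPKM is not a count, so no count model was used, and the depth of the libraries is unknown. Genes with a mean of at least 1 FPKM were analysed as log2(FPKM + 1) with limma 3.58.1 in R 4.3.3 (trend, no covariate, 2-sided, Benjamini-Hochberg over all 12003 genes, called under 0.05). Differences are siUSP32 minus siControl on that scale, which understates low genes, and folds are ratios of mean FPKM. Tested on simulated data made from this comparison with 12003 genes, 74.6% of 67 genes changed by 0.5 were recovered, 95.5% of 67 changed by 1 and 100% of 66 changed by 2, with 9 false calls. In that simulation most genes were unchanged and the libraries did not differ in scale, unlike in these data. Its recovery and false calls therefore do not describe the test as run here.

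Transcript lengths, coordinates and coding sequences are from GENCODE 29 (GRCh38) by Entrez identifier, for 99.6% of tested genes. The length used need not be the one the authors divided by. The length correction was a robust loess curve (span 0.5) through each library's deviations from the mean of the 6. A least-squares loess of degree 1 was run first. The robust form took its place after that result had been seen, because the first left the median of all genes off 0 and differed from an earlier account of these data, and both are reported. Members, gene lists, domain classes and the alternatives were chosen with earlier results of these data known. The rule for named genes took TRIM13, TRIM59, the 6 largest rises and falls, the 6 highest members and up to 2 rises and 2 falls per list by adjusted p. 1 gene that this rule names is not reported here. All 6 values are printed for the TRIM genes of that rule, group means for the list genes, and all 6 values also for TRIM23 and TRIM45, with the siUSP32 values of TRIM38, chosen after their values were seen. A p-value from an exact permutation test cannot go below 0.1 here. Same-numbered libraries deviated from their group means with correlations of -0.0766, 0.0706 and 0.119, so the numbers were not taken to pair the libraries.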

Additional observations from a re-analysis of the deposited data

How the results depend on the processing

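Scaling moved the calls more than any other choice. With TPM 2 members were higher and 28 lower, and 9 of the 11 rises lost their calls. Among members, the sign turned with TPM for TRIM41 (-0.30), TRIM28 (-0.091), TRIM29 (-0.10), TRIM5 (-0.31), TRIM35 (-0.077), TRIM26 (-0.23), TRIM16L (-0.019) and TRIM15 (-0.075), with HDAC2 (-0.082) from the lists. With the length correction 18 members were higher and 10 lower. The sign turned for TRIM36 (0.036), TRIM8 (0.45), TRIM25 (0.19), TRIM44 (0.28), TRIM24 (0.28), TRIM37 (0.14), TRIM38 (0.44), MID1 (0.055) and UBA6 (0.066). Of the 11 rises 2 and of the 17 falls 5 lost their calls, TRIM59 (-0.14) and TRIM13 (-0.0011) among them. With the shortest transcripts, an alternative added after seeing the data, 18 members were higher and 12 lower. Of all 11959 tested genes with a length 4281 were higher and 4203 lower. TRIM36 (0.068), TRIM8 (0.47), TRIM44 (0.29), TRIM24 (0.29), TRIM38 (0.45), MID1 (0.051), PML (0.27) and UBA6 (0.078) turned. TRIM59 (-0.11) was among the members that lost their calls. The least-squares loess, run first and replaced by the robust one after its result was seen, gave 23 higher and 8 lower. There TRIM36 (0.17), TRIM8 (0.55), TRIM25 (0.31), TRIM44 (0.40), TRIM24 (0.38), TRIM13 (0.10) and TRIM37 (0.28) turned. So did TRIM56 (0.013), TRIM38 (0.54), MAVS (0.055), MID1 (0.17), PML (0.37) and UBA6 (0.17). TRIM59 (-0.00095) was again among the members that lost their calls. After quantile normalization 18 members were higher and 8 lower. TRIM36 (0.11), TRIM21 (0.22), TRIM3 (0.29), TRIM68 (0.25), TRIM59 (0.066), TRIM24 (0.061), TRIM39 (0.029), TRIM38 (0.29), MID1 (0.0068) and MID2 (0.070) turned. Here 2 of the 11 rises and 9 of the 17 falls lost their calls, TRIM13 (-0.066) among them. A change of sign between values neither of which was called is not listed. The cause was not tested. The counts of called members in each direction stayed within 1.5 times with the other pseudocount (0.1), with no filter, at a minimum of 5 FPKM, with median-ratio scaling, without the trend, with array weights and without each library in turn. With the replicate number as a block (replicate block) TRIM13 was at -0.46 and TRIM59 at -0.33, and TRIM32 was the only member whose call changed (-0.18, called lower).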
